A study of Homo sapiens with 4 samples.

Results

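The receptors, binding proteins and adaptors of the insulin-like growth factor (IGF) system were followed by 10 genes, taken by symbol from a fixed list: the receptor genes IGF1R and IGF2R, the adaptor genes IRS1 and IRS2, and the binding-protein genes IGFBP1, IGFBP2, IGFBP3, IGFBP4, IGFBP6 and IGFBP7. The list was chosen with earlier results of these data known. All 10 genes were found among the 58825 gene rows of the count tables, and 8 had enough reads to be tested. The cells were LoVo, an established colon adenocarcinoma line, in which MET, a receptor tyrosine kinase, is active without ligand. The MET+ group held GFP control cells of wild-type genotype, and the MET-KO group held cells in which MET was disrupted with CRISPR/Cas9 under puromycin selection, with 2 libraries in each group and serum-containing medium in both. MET-KO cells were grown from picked single clones, and the sources do not say whether both MET-KO libraries came from 1 clone, so that an effect of losing MET and a difference between clones cannot be told apart.

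IGF1R is a receptor tyrosine kinase that binds IGF1 and IGF2 at the cell surface. On activation it phosphorylates the docking proteins IRS1 and IRS2, which recruit PI3-kinase and so feed the AKT and mTOR pathway. IGF2R, also the cation-independent mannose-6-phosphate receptor, has no kinase domain and carries IGF2 to lysosomes. The secreted IGFBPs hold IGFs in the extracellular space and thereby limit or prolong their access to IGF1R, and proteases such as pappalysin cut them to release the ligand. IGFBP7 binds IGFs weakly and insulin more readily, and is usually set apart from the other family members. In colorectal tumours this system is known as a source of growth and survival signals.

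The 4 libraries held 8429142 to 10286552 counts. They were made with a 3' mRNA kit, which yields about one fragment per transcript near its poly(A) tail. Levels in CPM (counts brought to a common library size with TMM factors) are therefore set side by side between genes without dividing by length. Whether transcripts of different genes were counted equally well was not tested, so such comparisons are of counts. The targeted gene followed its label, with MET at 337.6 and 335.8 CPM in the MET+ libraries and 84.4 and 88.9 CPM in the MET-KO libraries. Reads from the 3' end need not cover the edited site, so this level does not show the edit itself. All 10 epithelial and intestinal markers had counts and were tested. Of these, 2 rose (20%, against 27.2% of all tested genes) and 7 fell (70%, against 26.9%). The list was chosen with earlier results of these data known, so no excess is read from it. EPCAM, KRT8, KRT18, KRT19, CDH1 and CDX2 were present in every library, whereas CDH17 had 0 counts and LGALS4 1 count in each MET-KO library. Markers of other cell types stayed low. Those of endothelium summed to at most 0.924 CPM, those of immune cells to at most 0.645 CPM and those of fibroblasts to between 1.64 and 4.33 CPM. Of the 2 fibroblast markers that could be tested, the collagen gene COL3A1 rose, from 4 and 5 counts in MET+ to 24 and 26 in MET-KO. COL3A1 entered the test through its MET-KO counts alone. The other, COL1A1, had 13 and 10 counts in MET+ and 13 and 19 in MET-KO. The groups also differed across whole chromosomes, and 12 of the 13 tested genes of chromosome Y had 0 counts in both MET+ libraries. These 12 were therefore tested through their MET-KO counts alone. Whether the MET-KO cells descend from the sequenced MET+ population was not tested.

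BH adjustment ran over the 13801 genes that entered edgeR's fit, with a threshold of 0.05. Of the 10 genes, 8 were tested and 6 were higher in MET-KO cells, against 27.2% of all tested genes. These were IGF1R, IRS1, IRS2, IGFBP3, IGFBP6 and IGFBP7. None was lower, against 26.9% of all tested genes, and 0 were lower at an unadjusted p of 0.05 or by DESeq2's Wald test. IGF2R and IGFBP4 did not pass the threshold, and IGFBP1 and IGFBP2 had 0 counts in all 4 libraries. For 5 of the 6 the log2 fold change was also at least 1, which held for 14.5% of all tested genes in that direction. Since the 10 genes were chosen with earlier results of these data known, no excess over these shares is read from them. IGFBP3 and IGFBP7 entered the test through their MET-KO counts alone and had to differ to be tested, and 6 of the 10 genes had at least 10 counts in every library. In bulk RNA, a lower share of cells that express a gene and less RNA per cell cannot be told apart.

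The promoters of the genes that rose are shown to let their sequences be compared. RefSeq promoter entries on GRCh38.p14 were matched for 8 of the 10 genes, all but IGFBP1 and IGFBP7. Of the 5 matched genes that rose, the 150 bases before the RefSeq start are printed for 4, read 5' to 3' on the gene's strand, at chr2:226799821-226799970 (minus strand), chr13:109786584-109786733 (minus strand), chr15:98648389-98648538 (plus strand) and chr7:45921273-45921422 (minus strand). GENCODE 29 places the IRS1, IRS2 and IGF1R stretches outside any UTR and 2 bases of the IGFBP3 stretch in its 5' UTR. The rest of the IGFBP3 stretch lies inside the span GENCODE gives that gene, downstream of its outermost start. The stretch for IGFBP6 lies wholly in the 5' UTR of longer IGFBP6 transcripts and is not printed. Capitals mark CAAAACA (the core of the insulin response element that FOXO factors bind), GGAATG (the core bound by TEAD factors) or TATAAA (the TATA box), searched on both strands.
IRS1: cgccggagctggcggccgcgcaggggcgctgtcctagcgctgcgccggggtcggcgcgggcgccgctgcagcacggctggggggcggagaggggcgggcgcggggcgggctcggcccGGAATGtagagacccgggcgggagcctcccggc
IRS2: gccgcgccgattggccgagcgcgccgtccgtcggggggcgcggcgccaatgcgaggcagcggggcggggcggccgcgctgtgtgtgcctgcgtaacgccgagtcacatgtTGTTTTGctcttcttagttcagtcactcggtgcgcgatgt
IGF1R: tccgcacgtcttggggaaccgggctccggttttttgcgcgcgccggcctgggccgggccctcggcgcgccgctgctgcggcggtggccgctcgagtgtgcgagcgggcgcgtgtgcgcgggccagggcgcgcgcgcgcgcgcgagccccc
IGFBP3: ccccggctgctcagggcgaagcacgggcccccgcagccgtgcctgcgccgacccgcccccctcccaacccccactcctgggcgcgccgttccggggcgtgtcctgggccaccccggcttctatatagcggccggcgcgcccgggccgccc
No marked motif was common to the 4 stretches. IRS2 held CAAAACA on its reverse strand at 40 to 34 bases before the start, a motif found in 4.3% of all 35116 promoter windows of 250 bases. IRS1 held GGAATG at 33 to 28 bases and IGFBP6 at 101 to 96 bases before the start, and 11.9% of all windows hold it. IGF1R and IGFBP3 held none of these 3 in 250 bases. TATAAA, present in 10.7% of all windows, was found before IGFBP4 alone among the 8 matched genes. GGGCGG, the SP1 box, was not marked in capitals; it occurred in 42.6% of all windows and in all 8 matched genes, with 4 copies before IRS1, 5 before IRS2 and 6 before IGF2R, some of which share bases with the next copy. The windows of the 5 genes were rich in G and C, at 61.2% for IGFBP6 and 76.0% to 81.2% for the others, against a median of 58.0% over all windows. Only these exact letters were searched, so a variant such as the tatatag in the printed IGFBP3 stretch was not counted. A match describes the letters in this window and is not a measured binding site.

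Among the receptors, IGF1R rose and IGF2R did not pass the threshold. IGF1R (ENSG00000140443, chromosome 15, 98648539 to 98964530 on GRCh38) had 26.8 and 23.3 CPM in the MET+ libraries and 44.9 and 51.8 CPM in the MET-KO libraries. Both MET-KO values lay above both MET+ values. Mean levels were 25.1 ± 2.49 in MET+ and 48.4 ± 4.91 CPM in MET-KO (SD, n = 2). The log2 fold change was 0.95, with a standard error of 0.13 (edgeR quasi-likelihood test, BH-adjusted p = 1.38e-07). The genes of chromosome 15 went the other way, with a median log2 fold change of -0.43 over its 467 tested genes. IGF1R exceeded most of them (percentile 89.1), and the 25 tested genes within 5 Mb of it had a median of -0.16.

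IGF2R (ENSG00000197081, chromosome 6, 159969099 to 160113507) had 56.4 and 55.8 CPM in MET+ and 65.01 and 47.8 CPM in MET-KO libraries. The MET-KO values fell on either side of the MET+ values, so the groups overlapped. Its log2 fold change was 0.01 with a 95% interval from -0.24 to 0.25 (edgeR quasi-likelihood test, BH-adjusted p = 0.975), and differences inside this interval could not be resolved with 2 libraries a group. The direction of this value changed with the library left out, from -0.24 without MET-KO replicate 1 to 0.22 without MET-KO replicate 2.

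The insulin receptor gene INSR, whose product is the closest relative of IGF1R and can pair with it in hybrid receptors, moved in the opposite direction. It had 60.5 and 66.0 CPM in MET+ and 41.8 and 47.2 CPM in MET-KO libraries, a log2 fold change of -0.51 with a standard error of 0.11 (edgeR quasi-likelihood test, BH-adjusted p = 0.000277). IGF1R counts made up 30.7% (exact 95% binomial interval 27.4% to 34.2%) and 26.1% (23.2% to 29.2%) of the IGF1R plus INSR counts in the MET+ libraries. In the MET-KO libraries they made up 51.8% (48.5% to 55.2%) and 52.3% (49.3% to 55.3%). INSR counts thus outnumbered IGF1R counts in the MET+ libraries, and the counts were near equal in the MET-KO libraries. These intervals cover counting error alone, and the sources used here name no molecular identifiers.

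Both IRS adaptor genes rose, and the difference between their changes was not tested. IRS1 (ENSG00000169047, chromosome 2, 226731317 to 226799759) had 7.86 and 5.03 CPM in MET+ and 31.3 and 30.5 CPM in MET-KO libraries. The groups were far apart relative to the spread within them. The log2 fold change was 2.28 with a standard error of 0.19, or 4.85-fold (edgeR quasi-likelihood test, BH-adjusted p = 3.07e-12). On chromosome 2, with 926 tested genes and a median of 0.03, IRS1 was at percentile 94.2.

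IRS2 (ENSG00000185950, chromosome 13, 109752698 to 109786568), the most abundant of the 10 genes in every library, had 101.6 and 95.9 CPM in MET+ and 208.2 and 194.3 CPM in MET-KO libraries. Its level in MET-KO cells was 2.04 times that in MET+ cells, with no overlap, and its log2 fold change was 1.03 with a standard error of 0.10 (edgeR quasi-likelihood test, BH-adjusted p = 3.77e-11). On chromosome 13, with 240 tested genes and a median of 0.09, it was at percentile 83.8. IRS1 counts made up 7.17% (exact 95% binomial interval 5.58% to 9.05%) and 4.99% (3.71% to 6.54%) of IRS1 plus IRS2 counts in the MET+ libraries. They made up 13.1% (11.7% to 14.5%) and 13.6% (12.2% to 15.0%) in the MET-KO libraries. IRS2 therefore held most of the IRS1 plus IRS2 counts in both groups, while the IRS1 share differed by 7.23 percentage points between the group means. IRS4, the other family member on the lists used, had 0 counts in all libraries.

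Of the 6 binding-protein genes, 3 rose, 1 did not pass the threshold and 2 had no counts. Over all tested genes 27.2% rose, and no share is read from so few genes. IGFBP7 (ENSG00000163453, chromosome 4, 57030773 to 57110385) gave no reads in either MET+ library, and 1125 and 1217 counts in MET-KO, or 110.3 and 112.1 CPM. Taking 3 counts per MET+ library as the upper limit behind a 0, the MET-KO level was at least 331.7-fold higher. IGFBP7 thus went from undetected to a mean level below that of IRS2 alone among the 10 genes. It entered the test through its MET-KO counts alone, so its call is no support beyond these counts. The 27 tested genes within 5 Mb had a median log2 fold change of 0.07, equal to that of the whole chromosome. The end of IGFBP7 overlaps the end of POLR2B, which lies on the opposite strand, and the sources used here do not give the strand setting of the counting. POLR2B itself had 1348 and 1469 counts in MET+, where IGFBP7 had none, and 1006 and 1097 in MET-KO.

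IGFBP3 (ENSG00000146674, chromosome 7, 45912245 to 45921874), the main IGF carrier in serum, gave 3 and 0 counts in MET+ against 379 and 399 in MET-KO, or 37.2 and 36.7 CPM. Scaled for library size, the ratio of summed counts was 221.9, with a 95% counting interval from 75.7 to 1078. IGFBP3 entered the test through its MET-KO counts alone, so its call is no support beyond these counts. All 3 MET+ counts came from replicate 1. Without that library the MET-KO level was at least 120-fold higher, and the fitted log2 fold change of 7.69 moved to 11.57 without MET+ replicate 1 and to 6.61 without MET+ replicate 2. Chromosome 7 as a whole was shifted upward, with a median of 0.50 over 673 tested genes, and IGFBP3 was at percentile 98.8 there. IGFBP1 (ENSG00000146678), which lies next to it on chromosome 7 from 45888357 to 45893668 and encodes a binding protein made mainly by liver and decidua, had 0 counts in all 4 libraries.

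IGFBP6 (ENSG00000167779, chromosome 12, 53097436 to 53102345), which prefers IGF2 over IGF1, had 19.8 and 30.2 CPM in MET+ and 116.7 and 95.9 CPM in MET-KO libraries. Replicates were uneven in both groups, yet the groups did not overlap. Its log2 fold change was 2.08 with a standard error of 0.14 (edgeR quasi-likelihood test, BH-adjusted p = 6.75e-15). Chromosome 12 was shifted downward, with a median of -0.32 over 762 tested genes, and the 176 tested genes within 5 Mb of IGFBP6 had a median of -0.53. IGFBP6 lay 2.39 above the median of its chromosome on the log2 scale.

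IGFBP4 (ENSG00000141753, chromosome 17, 40443461 to 40457731), the preferred substrate of pappalysin, was low in all libraries, with 6.16 and 5.54 CPM in MET+ and 5.39 and 4.97 CPM in MET-KO cells. Both MET-KO values were below both MET+ values, but the difference did not exceed the error of the fit. The log2 fold change was -0.17 with a 95% interval from -0.74 to 0.40 (edgeR quasi-likelihood test, BH-adjusted p = 0.632). IGFBP2 (ENSG00000115457) had 0 counts in all 4 libraries, as did IGFBP5, its neighbour on chromosome 2, which is not among the 10 genes. A count of 0 still allows up to 0.362 CPM in the shallowest and 0.276 CPM in the deepest scaled library, so IGFBP1, IGFBP2 and IGFBP5 were not detectable at this depth.

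Summed over IGFBP1 to IGFBP7, binding-protein transcripts amounted to 26.3 and 35.7 CPM in the MET+ libraries and 269.5 and 249.6 CPM in the MET-KO libraries. The mean went from 31.0 ± 6.63 to 259.6 ± 14.1 CPM (SD, n = 2 each), a ratio of 8.37 that is given without a test. The make-up of the sum differed as well. IGFBP6 supplied 75.2% and 84.5% of the counts in the MET+ libraries, and IGFBP4 supplied 23.4% and 15.5%. In the MET-KO libraries IGFBP7 supplied 40.9% and 44.9%, IGFBP6 43.3% and 38.4%, IGFBP3 13.8% and 14.7%, and IGFBP4 2.0% and 1.99%. IGFBP6 and IGFBP7 thus made up most of the sum in MET-KO cells, and IGFBP6 alone in MET+ cells.

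Ordered by level, the 10 genes ran differently in the 2 groups. In MET+ cells IRS2 was highest with a mean of 98.8 CPM, followed by IGF2R with 56.1 CPM. IGF1R and IGFBP6 came next, with means of 25.1 and 25 CPM and overlapping values, and IRS1 and IGFBP4, with means of 6.44 and 5.85 CPM, overlapped too. In MET-KO cells IRS2 was again highest with 201.2 CPM. IGFBP7 and IGFBP6, with means of 111.2 and 106.3 CPM, overlapped, as did IGF2R and IGF1R with 56.4 and 48.4 CPM. IGFBP3 with 37.0 CPM lay above IRS1 with 30.9 CPM in both libraries, and IGFBP4 was last of the detected genes with 5.18 CPM. IGFBP7 and IGFBP6 thereby passed IGF2R, which led them in MET+ cells.

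Because whole chromosomes differed between the groups, each tested gene was set beside the genes of its own chromosome. Among the chromosomes that carry them, medians ranged from -0.43 on chromosome 15, which carries IGF1R, to 0.50 on chromosome 7, which carries IGFBP3. The 6 genes that rose stood at percentiles 83.8 to 99.8 of their chromosomes, and IGF2R and IGFBP4 at percentiles 47.1 and 34.9. The smallest distance from the chromosome's median among the 6 was that of IRS2, at 0.93 on the log2 scale. These percentiles are a description, and what shifted the chromosomes was not tested.

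Of the ligands, IGF2 and INS had 0 counts in all 4 libraries. IGF1 was undetected in MET+ and had 16 and 25 counts in MET-KO, or 1.57 and 2.30 CPM, which is at least 5.77-fold higher. It too entered the test through its MET-KO counts alone and had to differ to be tested. IGF1 lies on chromosome 12 like IGFBP6. Its level in MET-KO cells was far below that of the receptor IGF1R, at 48.4 CPM. IGFALS, the third partner of the serum complex of IGF and IGFBP3, had at most 3 counts in any library, and INSRR had none. IGFBPL1, an IGFBP-like gene, had 2 and 13 counts in MET+ and 0 in MET-KO libraries and was too low to be tested.

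Of 5 genes that act on the binding proteins, 2 rose, 1 did not pass the threshold and 2 had no counts, so that no share is read from them. PAPPA, which encodes pappalysin 1, the protease that cleaves IGFBP4, was undetected in MET+ and had 306 and 405 counts in MET-KO. Its MET-KO levels were 30 and 37.3 CPM, at least 100.4-fold higher than the limit in MET+ cells. Like IGFBP3 and IGFBP7, it entered the test through its MET-KO counts alone, so its call is no support beyond these counts. HTRA1, a secreted serine protease that can cut IGFBPs, had 5.80 and 4.72 CPM in MET+ and 18.1 and 16.4 CPM in MET-KO libraries, a log2 fold change of 1.72 with a standard error of 0.22 (edgeR quasi-likelihood test, BH-adjusted p = 2.78e-08). STC2, whose product stanniocalcin 2 inhibits pappalysin, had 84.7 and 82.0 CPM in MET+ and 74.6 and 71.1 CPM in MET-KO libraries. Its log2 fold change of -0.19 did not pass the threshold (edgeR quasi-likelihood test, BH-adjusted p = 0.106). PAPPA2 and STC1 had 0 counts in all libraries. PAPPA, IGFBP3 and IGFBP7 are also known from mesenchymal cells. In the same libraries 6 of the 8 fibroblast markers had counts, and the list summed to 2.18 and 1.64 CPM in MET+ and 3.82 and 4.33 CPM in MET-KO cells. COL1A2 and DCN were at 0 in all 4, whereas COL3A1 rose, with a log2 fold change of 2.22. COL3A1 entered the test through its MET-KO counts alone, so its call is no support beyond these counts. COL1A1, the other marker that could be tested, did not pass the threshold, with a log2 fold change of 0.24 (edgeR quasi-likelihood test, BH-adjusted p = 0.718). The part of fibroblast-type transcription in these results was not tested.

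The IGF2BP genes share part of their name with this family but encode RNA-binding proteins that bind IGF2 mRNA among other transcripts. IGF2BP3 rose from 15.7 and 16.1 CPM to 42.5 and 52.3 CPM, a log2 fold change of 1.58 with a standard error of 0.14 (edgeR quasi-likelihood test, BH-adjusted p = 1.98e-11). It lies on chromosome 7, and the 51 tested genes within 5 Mb of it had a median of 1.36. IGF2BP2 fell from 181.0 and 160.1 CPM to 124.8 and 140.6 CPM, with a log2 fold change of -0.36 and a standard error of 0.10 (edgeR quasi-likelihood test, BH-adjusted p = 0.0021). IGF2BP1 had at most 6 counts in any library.

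**Figure D1:**
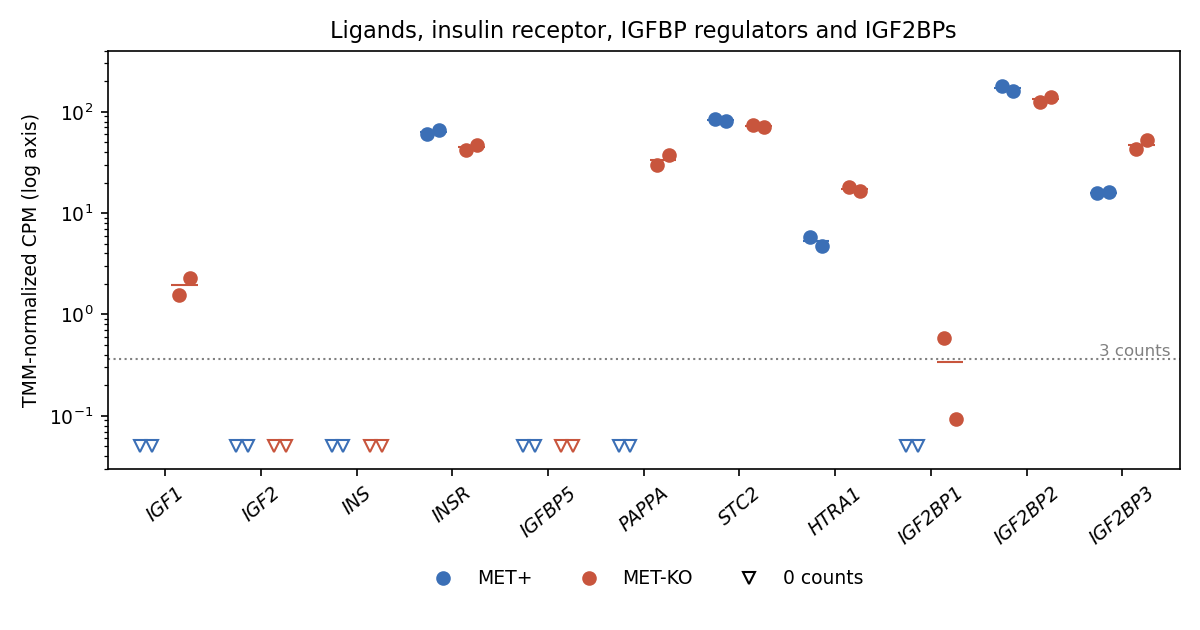
TMM-normalized CPM (log axis) of IGF ligands, the insulin receptor, IGFBP5, genes acting on IGFBPs and the IGF2BP genes, drawn as for the 10 genes, with 1 point per library. PAPPA, IGF1 and, with at most 6 counts, IGF2BP1 have counts in MET-KO libraries alone. INSR lies lower in MET-KO cells, and IGF2, INS and IGFBP5 have no counts.

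Downstream of the receptors, a list of 41 insulin and IGF signalling genes did not move in one direction. Of the 40 tested, 11 were higher in MET-KO cells (27.5%, against 27.2% of all tested genes), 8 were lower (20%, against 26.9%), and 21 did not pass the threshold. The median log2 fold change was 0.03, against 0.01 over all tested genes. With DESeq2's Wald test 5 in place of 11 were called higher and 7 in place of 8 lower. Calls over all genes went from 3755 to 2666 higher and from 3712 to 2767 lower under the same test.

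Among the genes that rose, RPTOR, a subunit of the mTOR complex 1, went from 10.3 and 10.7 to 22.6 and 24.9 CPM, or 2.27-fold (edgeR quasi-likelihood test, BH-adjusted p = 5.37e-07). PTPN1, a tyrosine phosphatase that removes phosphate from the insulin and IGF1 receptors, had a log2 fold change of 1.14 (edgeR quasi-likelihood test, BH-adjusted p = 5.43e-12). INPP5D, a lipid phosphatase acting on the product of PI3-kinase, and the transcription factor FOXO4 had log2 fold changes of 0.91 and 0.79. Among those that fell, EIF4EBP1, the translation repressor inactivated by mTOR complex 1, went from 95.7 and 104.6 to 39.3 and 42.9 CPM, a log2 fold change of -1.28 (edgeR quasi-likelihood test, BH-adjusted p = 3.51e-12). The adaptor SHC1, which links IGF1R to RAS, and the feedback inhibitor SOCS3, which targets IRS proteins, had log2 fold changes of -1.11 and -1.04. AKT1, the kinase downstream of PI3-kinase, had 163.7 and 171.8 CPM in MET+ and 92.1 and 82.7 CPM in MET-KO libraries, a log2 fold change of -0.94 (edgeR quasi-likelihood test, BH-adjusted p = 4.35e-10). AKT1 lies on chromosome 14, which was shifted downward, with a median of -0.51, and the 66 tested genes within 5 Mb of it had a median of -0.76. GRB14, an adaptor that inhibits the insulin receptor, had the most negative value of the list, was low in level and was picked out after its values were seen. It had 6.77 and 6.67 CPM in MET+ and 0.686 and 1.47 CPM in MET-KO. The list thus held positive and negative components of the pathway on both sides.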

How the data were processed

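RNA was sequenced from 2 MET+ and 2 MET-KO LoVo libraries (QuantSeq 3' FWD kit). The authors deposited raw counts per gene, 1 table per library, with no normalization. The submitters' processing notes name cutadapt 1.16, STAR 2.5.4a, featureCounts 1.6.2, DESeq2 1.18.1 and GRCh38, without their roles; the strand setting is not given in the sources used here. Unseparated PCR copies and unstranded counting could alter a count.

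Gene names and positions came from GENCODE 29, in which 58552 of 58825 gene rows were found; where a symbol had more than 1 row (IGF2, SOD2), the row with more counts was used. In R 4.3.3, edgeR 4.0.16 was run with filterByExpr, TMM and its quasi-likelihood test with condition as the only term, on the whole table, with Benjamini-Hochberg (BH) adjustment over 13801 genes and a threshold of 0.05, and was tested on simulated data. Depth was 8429142 to 10286552 counts, and a count of 0 allowed 3 counts. Replicates differed by more than counting noise (chi-square per degree of freedom 5.45 and 4.86); the labels call them biological replicates without naming separate cultures, so p-values measure the spread between these libraries. Promoter sequences came from RefSeq; proteins were not analysed here, and 1 signalling gene is not reported here. The 10 genes and the lists, written from general knowledge, were chosen with earlier results of these data known. All 10 genes and the short lists are named; of the signalling and FOXO lists, the 4 called genes with the largest change in each direction and a mean log2 CPM of at least 3. Alternatives were other scaling, DESeq2 1.42.0, other filters, a replicate block, leaving out each library, and a log2 fold change of at least 1. Figures were drawn with matplotlib 3.10.9.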

Additional observations from a re-analysis of the deposited data

How the results depend on the processing

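The count of 6 genes called higher and 0 called lower among the 10 held under DESeq2 size factors, library totals, DESeq2's Wald test, no filter, the replicate block and each library left out. With at least 10 counts in every library, 4 of the 6 genes that could be tested were called higher. IGFBP3 and IGFBP7 could not be tested there, and over all genes 3124 of 11844 were called higher. With a log2 fold change of at least 1 the count was 5, beside 14.5% of all tested genes. With 0 called lower, 0 of the 10 genes were lower at an unadjusted p of 0.05 in the quasi-likelihood test. The sign of IGF2R, never past the threshold, changed under the replicate block (log2 fold change -0.0094), and its value ran from -0.24 to 0.22 when each library was left out. Requiring a log2 fold change of at least 1 took the calls over all genes to 2001 higher and 1354 lower, from 3755 and 3712, and those of the signalling list to 2 higher and 4 lower, from 11 and 8. By construction it removes smaller changes. DESeq2's Wald test called 5 signalling genes higher, and over all genes 2666 higher and 2767 lower. The cause of these differences was not tested. Library totals raised the median of all tested genes from 0.01 to 0.11. Differences of replicates 1 and 2 did not correlate between the groups (r = -0.0216 across genes, which are not independent replicates). This gave no sign of a shared replicate effect and cannot tell whether the libraries were prepared in pairs. The replicate block gave 3544 genes higher and 3511 lower. Genes below about 3 counts in a library could not be followed at this depth.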

Other observations

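A list of 12 genes known to respond to FOXO factors, which insulin and IGF signalling hold out of the nucleus through AKT, went both ways; IRS2 and IGFBP1, which also respond to FOXO, were left off it. Of the 11 tested, 3 were higher (27.3%, against 27.2% of all tested genes) and 5 lower (45.5%, against 26.9%) in the MET-KO libraries, and the median log2 change was -0.11. SESN1, which restrains mTOR complex 1, rose from 19.5 and 20.7 to 63.3 and 68.1 CPM, a log2 fold change of 1.71 (edgeR quasi-likelihood test, BH-adjusted p = 9.42e-14). The stress gene GADD45A rose with a log2 fold change of 0.87 (edgeR quasi-likelihood test, BH-adjusted p = 1.47e-08). The third gene called higher, SESN3, was below the level set for named genes. It had 5 and 9 counts in MET+ and 69 and 66 in MET-KO, a log2 fold change of 3.03. SESN3 entered the test through its MET-KO counts alone, so its call is no support beyond these counts. ERBB3, a receptor that couples to PI3-kinase, fell from 53.5 and 54.1 to 25.1 and 19.4 CPM, a log2 fold change of -1.28 (edgeR quasi-likelihood test, BH-adjusted p = 4.16e-10). BCL6, KLF6 and SOD2 fell as well, with log2 fold changes of -1.12, -1.08 and -0.54. The FOXO genes themselves other than FOXO4 had log2 fold changes of -0.14 for FOXO1 and -0.12 for FOXO3, neither past the threshold.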
